A study of Homo sapiens with 15 samples.

Results

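The genes described here encode heat shock proteins and other molecular chaperones, with their helper proteins, in Caco-2 cells. They were chosen by gene symbol alone: the symbol had to start with HSPA, HSPB, HSPD, HSPE, HSPH, HSP90, DNAJ, PDIA or FKBP, or be BAG or CCT followed by a digit. The rule found 30 symbols among the 14884 symbols named here, on 44 rows of the table, and the brightest row stood for each symbol. Of the 30, 26 passed a filter on dim genes (above the 40th percentile of all rows in at least 5 arrays) and were tested among 11804 genes. The HSP90, CCT and PDIA genes, HSPA5, HSPA8, HSPE1 and the protein-coding DNAJ genes were not analysed here, because no row named here carried those symbols. By textbook location 19 of the 30 act in the cytosol or nucleus (17 tested), 2 in mitochondria (both tested), 1 in the endoplasmic reticulum (ER; 0 tested), and 8 were placed in neither (7 tested). The last set holds the atypical HSP70 relatives HSPA12A and HSPA12B, HSPBAP1, and symbols with no chaperone product of their own (the pseudogenes HSPA7 and FKBP9P1, the antisense RNAs DNAJC9-AS1 and DNAJC27-AS1, and the read-through RNA HSPB2-C11orf52).

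Caco-2 cells come from a human colon tumour and differentiate into an enterocyte-like layer once confluent. The 15 arrays fell into 3 groups of 5. LPS+RSV cells received 50 µM trans-resveratrol, a plant polyphenol dissolved in ethanol, 1 h before lipopolysaccharide (LPS) from E. coli K12 at 1 µg/mL for 48 h. LPS cells received the same LPS without resveratrol, and Control cells were untreated. Cells were used 15 to 19 days after seeding. The labels do not say whether LPS or Control cells received ethanol, nor that numbered samples came from separate cultures, so the p-values rest on the sample-to-sample spread, and that spread may be technical. All 12 enterocyte and Caco-2 markers named here, among them VIL1, EPCAM, CDX2 and SI, passed the filter. Of the fibroblast markers DCN lay below it, while LUM and THY1 passed. LUM averaged 4.46 in LPS+RSV, 5.43 in LPS and 4.76 in Control cells, and THY1 averaged 6.06 in LPS+RSV, 6.20 in LPS and 6.13 in Control cells. The mean deviation of these 2 tested fibroblast markers spanned -0.61 to -0.09 in LPS+RSV arrays, 0.04 to 0.58 in LPS arrays and -0.14 to 0.04 in Control arrays. LPS+RSV and LPS arrays thus did not overlap in it, as held for 2.80% of all genes tested singly. The LUM means of LPS+RSV and Control cells lay under the filter value of 5.03 to 5.09, and only the LPS mean lay above it. The part of this marker score in the chaperone values was not tested. Immune markers were not absent, since CD68, LYZ and CD14 passed the filter (CD68 averaged 11.71 in LPS+RSV, 11.43 in LPS and 11.51 in Control cells on the log2 scale). Array medians lay between 5.49 and 5.54. Array LPS+RSV 1 was unlike the rest: it correlated with the other arrays at 0.946 on average, and each other array did so at 0.973 to 0.984. Many of the values that move by much without LPS+RSV 1 are therefore given both ways.

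Chaperones bind unfolded stretches of protein and either hold or refold them. HSP70 proteins do so through cycles of ATP use, HSP110 and BAG proteins release the spent nucleotide from HSP70, small heat shock proteins hold clients without ATP, and HSP90 with its FKBP helpers matures receptors and kinases. In the cytosol, heat shock factor 1 (HSF1) switches on HSPA1A, HSPA1B, HSPH1 and HSPB1 under heat or oxidative stress, through repeats of the unit nGAAn. In the ER and in mitochondria separate pathways answer to misfolded protein.

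The start regions of the stress-inducible genes that the results turn on are shown first, because HSPA1A and HSPA1B are near-identical copies and because heat shock elements are defined by sequence. Each is the 250 bases before the gene start in RefSeq (GRCh38.p14), read 5′ to 3′ on the gene's strand, with capitals marking GAANNTTC, an inverted pair of heat shock units. The windows lie at chr6:31815293-31815542 (plus strand) for HSPA1A, chr6:31827488-31827737 (plus strand) for HSPA1B, chr7:76302423-76302672 (plus strand) for HSPB1 and chr13:31162389-31162638 (minus strand) for HSPH1.
HSPA1A: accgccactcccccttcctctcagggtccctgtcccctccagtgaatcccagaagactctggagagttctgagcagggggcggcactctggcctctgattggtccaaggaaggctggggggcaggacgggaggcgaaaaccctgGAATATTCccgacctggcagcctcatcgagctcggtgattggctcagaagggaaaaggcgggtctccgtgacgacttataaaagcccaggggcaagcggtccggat
HSPA1B: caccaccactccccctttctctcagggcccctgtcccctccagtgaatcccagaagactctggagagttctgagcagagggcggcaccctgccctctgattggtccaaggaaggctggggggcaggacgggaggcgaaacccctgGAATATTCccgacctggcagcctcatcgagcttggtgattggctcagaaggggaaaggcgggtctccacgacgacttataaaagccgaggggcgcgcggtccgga
HSPB1: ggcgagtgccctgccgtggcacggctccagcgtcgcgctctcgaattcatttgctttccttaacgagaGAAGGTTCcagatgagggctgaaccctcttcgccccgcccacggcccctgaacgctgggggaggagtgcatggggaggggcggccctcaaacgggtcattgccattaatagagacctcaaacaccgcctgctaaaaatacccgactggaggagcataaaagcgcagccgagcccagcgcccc
HSPH1: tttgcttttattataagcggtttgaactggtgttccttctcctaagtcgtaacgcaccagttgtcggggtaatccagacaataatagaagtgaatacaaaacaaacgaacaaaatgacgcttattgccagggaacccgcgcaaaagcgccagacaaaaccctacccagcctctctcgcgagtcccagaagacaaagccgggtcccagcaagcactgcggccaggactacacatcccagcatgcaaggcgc

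The HSPA1A and HSPA1B windows were identical at 93.6% of 251 aligned columns, and the motif began at positions -106 and -105 from the start. In HSPB1 it began at position -182, and the HSPH1 window held none. HSPA1L is read from the opposite strand, with 259 bases between its start and that of HSPA1A; the 2 windows share 241 bases and the same motif at chr6:31815437-31815444. GAANNTTC or TTCNNGAA, each its own reverse complement, occurred in the windows of 8 of the 19 tested members with a promoter entry (BAG2, HSPA1A, HSPA1B, HSPA1L, HSPA4L, HSPA6, HSPB1 and HSPD1), and in those of 14.0% of all 27305 genes of the table. A run of 3 units (GAANNTTC followed by NNGAA, or TTCNNGAA followed by NNTTC) occurred in 2 of the 19, HSPA6 and HSPD1, and in 0.557% of all genes; these runs overlap the shorter motif. A match is a description of letters and says nothing of HSF1 binding.

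In LPS+RSV against LPS the HSP70 genes HSPA1A, HSPA1B and HSPA1L and the small heat shock gene HSPB1 were higher on average by 0.21 to 0.34 (log2), while the 3 HSP110 genes were lower by 0.22 to 0.38, none of them past the adjusted threshold. A gene was called at an adjusted p under 0.05 by limma over all genes tested. None of the 26 was called, as against 0.0424% of all genes (5 of 11804). At an unadjusted p under 0.05 there were 9 of 26, against 18.6% of all genes: 5 higher (HSPA1A, HSPA1B, HSPA1L, HSPB1 and HSPB2-C11orf52), against 8.08% of all genes, and 4 lower (HSPH1, HSPA4, BAG2 and FKBP5), against 10.5%. For 0 of the 26 did the 2 groups separate fully, against 2.80% of all genes. The median difference over the 26 was -0.07, with 12 higher and 14 lower, beside 0.01 over all genes.

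**Figure D1:**
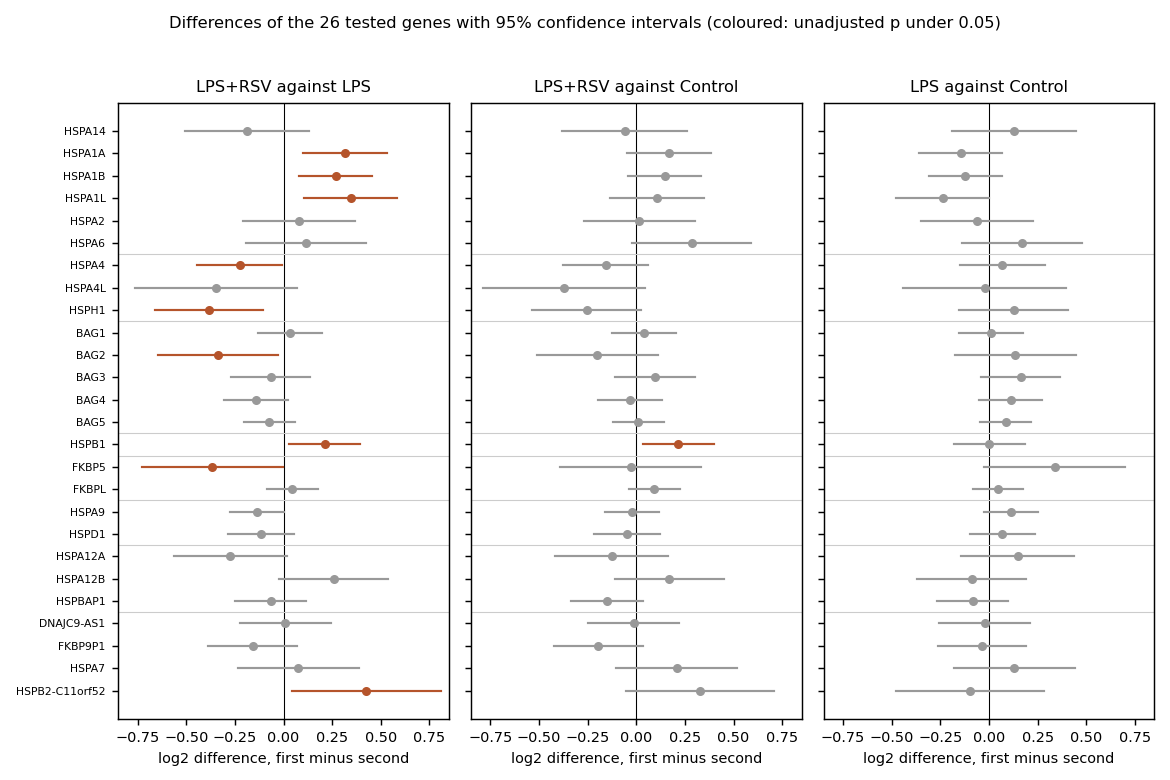
Difference of group means with 95% confidence interval for the 26 tested genes, by family, in the 3 comparisons (x axis: log2 difference, first group minus second). Coloured points have an unadjusted p under 0.05: there are 9 in LPS+RSV against LPS, 1 in LPS+RSV against Control and 0 in LPS against Control.

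HSPA1A, the main stress-inducible HSP70 of the cytosol, read 11.39, 10.73, 10.86, 10.83 and 10.84 (log2) in LPS+RSV arrays 1 to 5, against 10.59, 10.59, 10.76, 10.65 and 10.49 in LPS arrays. Control arrays read 10.77, 10.70, 10.75, 10.84 and 10.74. Array LPS+RSV 1 was far above the other arrays, 4 of 5 LPS+RSV arrays exceeded every LPS array, and the 2 groups overlapped through LPS+RSV 2 and LPS 3. The means were 10.93 ± 0.26 in LPS+RSV, 10.62 ± 0.10 in LPS and 10.76 ± 0.05 in Control cells (SD, n = 5 each). The LPS+RSV minus LPS difference was 0.32 ± 0.10 (SE; 1.25-fold; adjusted p = 0.158). Without LPS+RSV 1 it was 0.20 (adjusted p = 0.199).

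HSPA1B, its near-identical neighbour, read 11.13, 10.64, 10.65, 10.67 and 10.69 in LPS+RSV arrays, against 10.48, 10.43, 10.65, 10.50 and 10.40 in LPS arrays. The difference was 0.27 ± 0.09 (adjusted p = 0.164), and 0.17 without LPS+RSV 1. Probes of HSPA1A and HSPA1B may catch each other's RNA, so these are not separate observations. HSPA1L, a constitutive HSP70 best known from testis, read 7.56, 7.03, 7.00, 6.92 and 7.05 in LPS+RSV arrays, against 6.75, 6.93, 6.92, 6.74 and 6.50 in LPS arrays. Again 4 of 5 LPS+RSV arrays lay above every LPS array; the difference was 0.34 ± 0.11 (adjusted p = 0.163), and 0.23 without LPS+RSV 1.

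The symbols HSPA1A, HSPA1B and HSPA1L stood on 15 rows of the table, 5 each, and 3 of the HSPA1A rows held identical values. Likewise 3 of the HSPA1L rows had the same group means, so the 15 rows hold 11 distinct sets of means. All 15 were higher in LPS+RSV than in LPS cells, by 0.24 to 0.34, and all 15 were lower in LPS than in Control cells, with differences of -0.24 to -0.12. These 2 comparisons share the LPS arrays, so a low LPS mean enters both. All the rows were read on the same 15 arrays, so they are not separate observations.

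**Figure D2:**
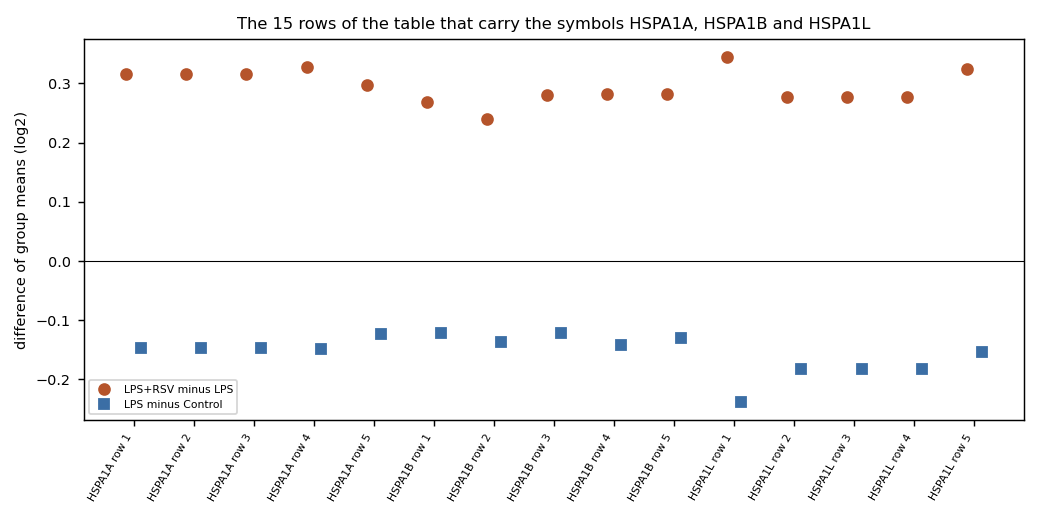
Difference of group means (log2) for each of the 15 rows that carry HSPA1A, HSPA1B or HSPA1L, brightest first within a symbol. The circles (LPS+RSV minus LPS) lie between 0.24 and 0.34 and the squares (LPS minus Control) between -0.24 and -0.12; both use the same LPS arrays.

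The other HSP70 genes showed smaller differences. HSPA6, an HSP70 that in most cells is made only under strong stress, read 5.54, 4.85, 4.93, 5.14 and 5.12 in LPS+RSV arrays, against 5.20, 5.03, 5.12, 4.85 and 4.79 in LPS arrays, close to the filter value of 5.03 to 5.09. The groups overlapped widely, and the difference was 0.11 ± 0.15 (adjusted p = 0.699). Without LPS+RSV 1 it was 0.0082, and with the mean deviation of cell cycle genes as a covariate it was -0.15. HSPA2, a testis-enriched HSP70, averaged 5.93 ± 0.37 in LPS+RSV and 5.85 ± 0.09 in LPS cells (SD, n = 5); the LPS+RSV mean rested on array 1 at 6.59, and without it the difference turned from 0.08 to -0.09. HSPA14, a ribosome-bound HSP70, differed by -0.19 ± 0.15 (adjusted p = 0.519). Of the 6 HSP70 genes, 5 were higher in LPS+RSV than in LPS cells, with a median of 0.19. Without LPS+RSV 1, 4 of the 6 were higher and the median was 0.09.

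The HSP110 genes, the nucleotide exchange factors of HSP70, all 3 averaged lower with resveratrol plus LPS than with LPS alone, with a median of -0.35. That median was -0.18 without LPS+RSV 1. HSPH1 (HSP105), the stress-inducible one, read 8.20, 8.84, 8.91, 8.58 and 8.39 in LPS+RSV arrays, against 8.73, 8.85, 8.90, 9.26 and 9.10 in LPS arrays. Of the LPS+RSV arrays, 3 lay below every LPS array, and arrays 2 and 3 lay within the LPS range. The means were 8.59 ± 0.30 in LPS+RSV and 8.97 ± 0.21 in LPS cells (SD, n = 5), the difference -0.38 ± 0.13 (adjusted p = 0.169), and -0.29 without LPS+RSV 1.

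HSPA4 (APG-2) read 9.53, 10.00, 9.79, 9.62 and 9.53 in LPS+RSV arrays, against 9.86, 9.91, 9.80, 10.01 and 10.00 in LPS arrays. Its difference was -0.22 ± 0.10 (adjusted p = 0.257), with 4 of 5 LPS+RSV arrays below every LPS array. HSPA4L (APG-1) read 6.97, 8.18, 8.01, 7.86 and 7.64 in LPS+RSV arrays, against 7.82, 7.92, 8.03, 8.23 and 8.42 in LPS arrays. Array 1 was the lowest of all 15; the difference of -0.35 ± 0.20 (adjusted p = 0.351) was -0.16 without it.

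HSPB1 (HSP27), the small heat shock protein of epithelia that also guards actin filaments, read 8.84, 8.62, 8.46, 8.32 and 8.35 in LPS+RSV arrays. LPS arrays read 8.25, 8.32, 8.35, 8.26 and 8.35, and Control arrays 8.35, 8.35, 8.23, 8.24 and 8.35. Arrays 1 to 3 of LPS+RSV exceeded every LPS and Control array, and the other 2 did not. The LPS+RSV minus LPS difference was 0.21 ± 0.09 (adjusted p = 0.210), and 0.13 without array 1. HSPB3 and HSPB8 lay below the filter, at 4.12 to 4.80 and 4.63 to 5.58 over the 15 arrays.

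**Figure D3:**
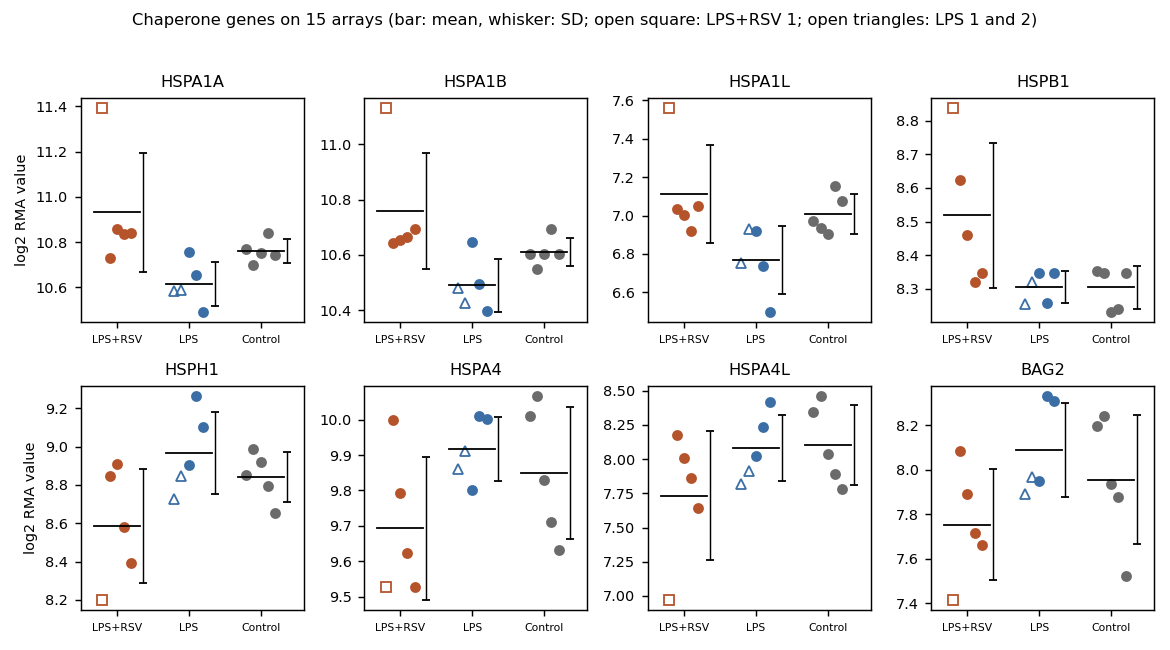
Log2 value of each array for 8 chaperone genes in LPS+RSV, LPS and Control cells (bars: mean; whiskers: SD, n = 5 each; open square: LPS+RSV 1; open triangles: LPS 1 and 2). LPS+RSV 1 is the highest of all 15 arrays for HSPA1A, HSPA1B, HSPA1L and HSPB1 and the lowest for HSPH1, HSPA4L and BAG2; the y axes do not start at 0.

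Among the 5 BAG proteins, which tie HSP70 to protein breakdown and cell survival, 4 were lower and 1 higher in LPS+RSV than in LPS cells (median -0.07). BAG2, an inhibitor of the HSP70-bound ubiquitin ligase CHIP, read 7.42, 8.08, 7.89, 7.72 and 7.66 in LPS+RSV arrays, against 7.89, 7.97, 7.95, 8.33 and 8.31 in LPS arrays. With 4 of 5 LPS+RSV arrays below every LPS array, the difference was -0.34 ± 0.15 (adjusted p = 0.241), and -0.25 without LPS+RSV 1. BAG3, which routes clients to autophagy and is itself stress-induced, averaged 7.43 ± 0.25 in LPS+RSV and 7.49 ± 0.08 in LPS cells (SD, n = 5). The difference was -0.07 ± 0.10 (adjusted p = 0.742) and became -0.17 without LPS+RSV 1, whose value of 7.85 was the highest of all. BAG1, BAG4 and BAG5 differed by 0.03, -0.14 and -0.07.

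FKBP5 (FKBP51), an HSP90 helper that glucocorticoids induce, read 6.43, 6.86, 6.53, 6.18 and 6.32 in LPS+RSV arrays, against 6.74, 6.59, 6.59, 6.99 and 7.24 in LPS arrays. In Control arrays it read 6.75, 6.92, 6.46, 6.28 and 6.05, a range that takes in all 5 LPS+RSV and 3 of 5 LPS values. The LPS+RSV minus LPS difference was -0.37 ± 0.17 (adjusted p = 0.265). FKBPL, another HSP90 helper, differed by 0.05 ± 0.06 (adjusted p = 0.719).

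Both mitochondrial chaperones were slightly lower in LPS+RSV than in LPS cells. HSPA9 (mortalin), the HSP70 that pulls proteins into the matrix, read 11.62, 11.83, 11.69, 11.69 and 11.62 in LPS+RSV arrays, against 11.84, 11.84, 11.74, 11.87 and 11.83 in LPS arrays. That is 4 of 5 LPS+RSV arrays below every LPS array, with a difference of -0.14 ± 0.07 (adjusted p = 0.277). HSPD1 (HSP60), the matrix chaperonin, averaged 9.50 ± 0.07 in LPS+RSV and 9.62 ± 0.16 in LPS cells (SD, n = 5), with a difference of -0.12 ± 0.08 (adjusted p = 0.445). With the cell cycle score as a covariate the differences were -0.03 for HSPA9 and 0.00047 for HSPD1.

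Of the remaining symbols, HSPB2-C11orf52, a read-through RNA over HSPB2 and its neighbour, read 8.18, 7.31, 7.61, 7.73 and 7.72 in LPS+RSV arrays, against 7.41, 7.08, 7.50, 7.09 and 7.33 in LPS arrays. Its difference was 0.43 ± 0.18 (adjusted p = 0.231), the highest among the 26, and Control arrays spanned 6.86 to 7.83. It was 0.31 without LPS+RSV 1 and 0.10 (adjusted p = 0.836) with the cell cycle score as a covariate. HSPA12A and HSPA12B, distant HSP70 relatives, differed by -0.27 ± 0.14 and 0.26 ± 0.13 (adjusted p = 0.296 and 0.303); without LPS+RSV 1 the HSPA12B value was 0.11. HSPBAP1, which binds HSPB1, and DNAJC9-AS1, FKBP9P1 and HSPA7 differed by -0.07, 0.01, -0.16 and 0.08. Without LPS+RSV 1 these were 0.02, -0.06, -0.18 and 0.04. DNAJC27-AS1 lay below the filter, at 4.46 to 5.08.

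Against untreated cells the largest LPS+RSV values were -0.37 for HSPA4L, 0.33 for HSPB2-C11orf52, 0.28 for HSPA6 and -0.26 for HSPH1. HSPA6 read 4.53, 4.77, 4.65, 4.92 and 5.29 in Control arrays, below the filter value of 5.03 to 5.08 in all but Control 5. None of the 26 was called, against 0% of all genes, and 1 of 26 (HSPB1) had an unadjusted p under 0.05, against 10.5% of all genes (4.09% higher and 6.40% lower). In 0 of 26 did the groups separate fully, against 1.72% of all genes. HSPB1 differed by 0.21 ± 0.09 (adjusted p = 0.464), and by 0.13 without LPS+RSV 1, when none of the 26 had an unadjusted p under 0.05, against 5.33% of all genes. HSPA6 differed by 0.28 ± 0.15, HSPH1 by -0.26 ± 0.13, HSPA4L by -0.37 ± 0.20, HSPB2-C11orf52 by 0.33 ± 0.18, FKBP9P1 by -0.19 ± 0.11 and HSPBAP1 by -0.15 ± 0.09 (adjusted p from 0.482 to 0.506). Without LPS+RSV 1 these were 0.18 for HSPA6, -0.16 for HSPH1, -0.18 for HSPA4L, 0.21 for HSPB2-C11orf52 and -0.07 for HSPBAP1. HSPA1A differed by 0.17 ± 0.10 (adjusted p = 0.516) and by 0.05 without LPS+RSV 1. The median over the 26 was -0.00, with 13 higher and 13 lower, beside 0.02 over all genes.

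LPS alone for 48 h gave its largest differences from untreated cells in FKBP5 (0.34) and HSPA1L (-0.24). With the cell cycle score as a covariate these were 0.06 and -0.15. The largest was then 0.37 for HSPA6 (adjusted p = 0.112), whose values lay near the filter. None of the 26 was called, against 0.0254% of all genes (3 of 11804), and none had an unadjusted p under 0.05, against 7.88% (4.62% higher and 3.26% lower). The count at an unadjusted p under 0.05 was 3 of 26 with only those 2 groups fitted (9.33% of all genes) and 3 with the covariate (15.8%). It was 5 with array weights (12.4%) and 4 without LPS+RSV 1 (10.3%), whose removal alters only the pooled spread here. In 0 of 26 did the groups separate fully, against 2.21% of all genes. The lowest p-values belonged to HSPA1L at -0.24 ± 0.11 (adjusted p = 0.636), FKBP5 at 0.34 ± 0.17 (0.672), HSPA9 at 0.11 ± 0.07 (0.722) and BAG3 at 0.16 ± 0.10 (0.730). BAG3 read 7.53, 7.57, 7.52, 7.47 and 7.37 in LPS arrays, against 7.32, 7.30, 7.27, 7.44 and 7.33 in Control arrays, so 4 of 5 LPS arrays exceeded every Control array. HSPA1A differed by -0.15 ± 0.10, HSPA1B by -0.12 ± 0.09, BAG4 by 0.11 ± 0.08 and BAG5 by 0.09 ± 0.06 (adjusted p from 0.783 to 0.800). Values near 0 came from HSPB1 (0.00 ± 0.09) and BAG1 (0.01 ± 0.08). The median over the 26 was 0.06, with 16 higher and 10 lower, beside 0.01 over all genes.

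Cytosolic and ER chaperones could not be compared within the rule, because its 1 ER member, FKBP7, a prolyl isomerase of the ER lumen, lay below the filter in all groups. It read 3.60 to 3.89 in LPS+RSV, 3.56 to 3.80 in LPS and 3.63 to 4.01 in Control arrays. ER genes outside the rule stood in for it: 28 folding and unfolded protein response genes were tested, of 41 listed. In LPS+RSV against LPS the 17 cytosolic members had a median of -0.07 (8 higher, 9 lower) and the ER genes one of -0.04 (10 higher, 18 lower). For LPS+RSV against Control both medians were 0.02, and for LPS against Control they were 0.07 for the cytosolic members and 0.05 for the ER genes. The ER genes deviated on average by 0.11 in LPS 1 and 0.09 in LPS 2, and by -0.04 to 0.01 in LPS 3 to 5. Without LPS 1 and LPS 2 the ER median was -0.0053 in LPS+RSV against LPS and 0.0093 in LPS against Control. The cytosolic medians were then -0.03 and 0.09. None of either set was called. Single cytosolic members ranged from -0.38 to 0.34 in LPS+RSV against LPS.

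Among the ER genes, the calcium-binding chaperone CALR averaged 12.35 in LPS+RSV and 12.19 in LPS cells, a difference of 0.16 ± 0.06 (adjusted p = 0.176). EIF2AK3 (PERK), the ER stress sensor that slows translation, averaged 7.42 in LPS+RSV and 7.63 in LPS cells, a difference of -0.22 ± 0.09 (adjusted p = 0.210). In LPS+RSV against Control the translocon partner SEC63 differed by -0.23 ± 0.10 and the folding factor ERP29 by 0.17 ± 0.08 (adjusted p = 0.464 and 0.475). In LPS against Control the sensor ERN1 (IRE1) differed by 0.27 ± 0.09 and the stress-induced pseudokinase TRIB3 by 0.47 ± 0.15 (adjusted p = 0.369 and 0.370). The unadjusted p was under 0.05 for 5 of the 28 in LPS+RSV against LPS (17.9%, beside 18.6% of all genes). It was so for 2 of the 28 (7.14%) in LPS+RSV against Control and in LPS against Control, beside 10.5% and 7.88% of all genes.

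The heat shock regulators and cochaperones outside the rule gave 13 tested genes of 25 listed, none of them called in any comparison. HSF1 averaged 7.42 in LPS+RSV, 7.43 in LPS and 7.28 in Control cells, with differences of -0.01 ± 0.07 for LPS+RSV against LPS, 0.14 ± 0.07 for LPS+RSV against Control and 0.15 ± 0.07 for LPS against Control (adjusted p = 0.940, 0.483 and 0.636). CHORDC1, an HSP90-binding cochaperone induced by heat, averaged 7.04 in LPS+RSV, 7.48 in LPS and 7.56 in Control cells. It differed by -0.45 ± 0.20 in LPS+RSV against LPS and by -0.52 ± 0.20 in LPS+RSV against Control (adjusted p = 0.250 and 0.464). Medians of the list were -0.03, 0.01 and -0.04 for LPS+RSV against LPS, LPS+RSV against Control and LPS against Control.

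Across single arrays the families did not move as a block. In LPS+RSV 1 the 6 HSP70 genes lay on average 0.48 above their mean over all arrays, and the 3 HSP110 genes had an average deviation of -0.63. The HSP70 average in the other 4 LPS+RSV arrays ran from -0.05 to 0.02, and in LPS arrays from -0.11 to -0.03. LPS+RSV 1 was the highest of its group for 13 of the 26 genes and the lowest for 5. By this count it differed little from LPS+RSV 2 (highest for 9, lowest for 8) and Control 2 (highest for 11, lowest for 6). The share over all genes is not given here. Without it, 5 of 26 had an unadjusted p under 0.05 in LPS+RSV against LPS, in place of 9, while the share of all genes was 14% in place of 18.6%.

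**Figure D4:**
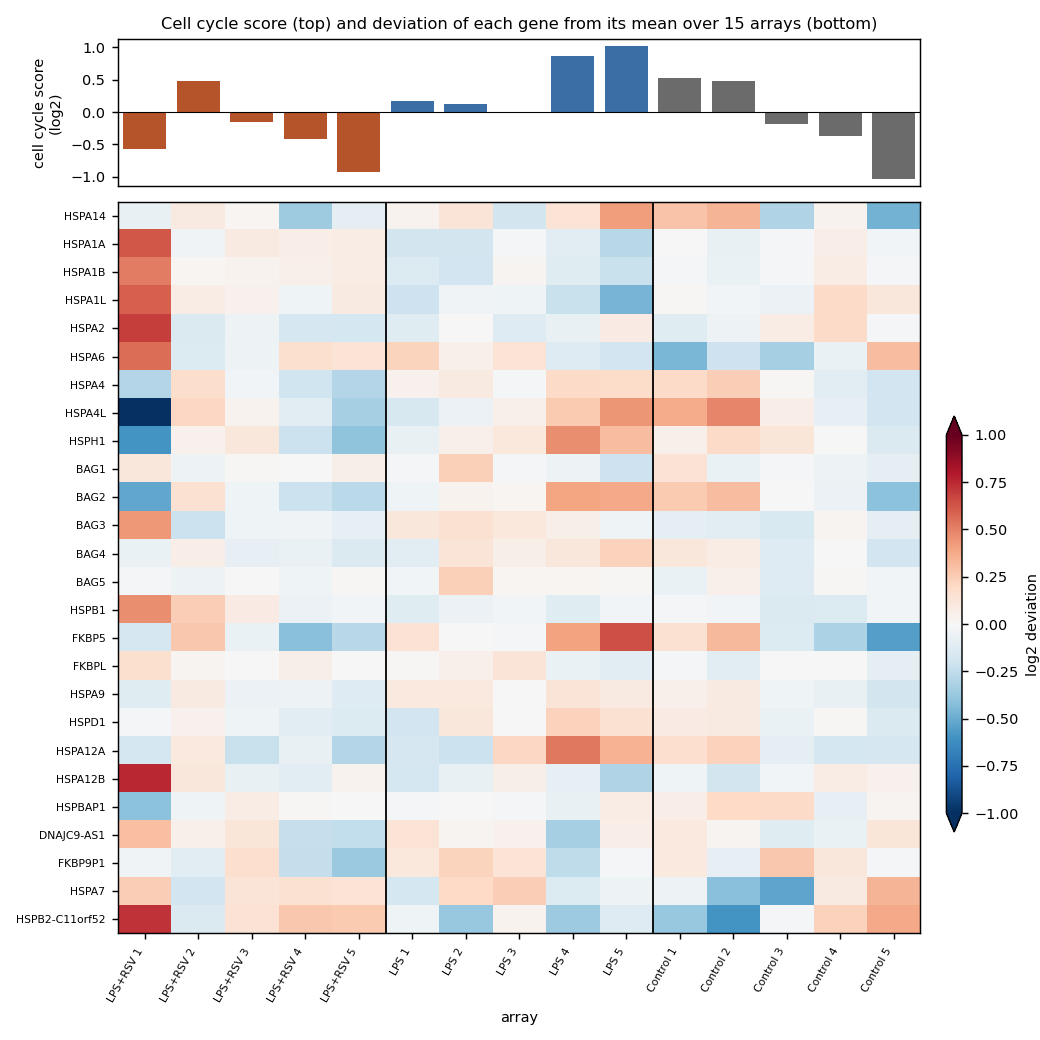
Upper panel: mean deviation (log2) of 32 cell cycle genes from their mean, per array. Lower panel: deviation (log2; red higher, blue lower) of each of the 26 chaperone genes from its mean over 15 arrays, grouped by family; LPS+RSV 1 stands out with HSP70 genes 0.48 above and HSP110 genes at -0.63 on average.

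Many of the chaperone genes followed the level of cell division genes from array to array. The cell cycle score, the mean deviation of 32 cell cycle genes, spanned -0.93 to 0.47 in LPS+RSV arrays, -0.01 to 1.02 in LPS arrays and -1.03 to 0.52 in Control arrays. For LPS+RSV against LPS all 32 differences were below 0 (median -0.72), and for LPS against Control all 32 were above 0 (median 0.55), with 0 called; both use the LPS arrays. Deviations from the group means were correlated over the 15 arrays with 100000 permutations, adjusted over 11772 genes. Of the 26 genes, 12 were called, against 22.0% of all genes: 10 positive, against 12.9%, and 2 negative, against 9.13%.

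The positive ones were HSPA4 (r = 0.932, rho = 0.861), FKBP5 (0.930, 0.868), BAG2 (0.928, 0.907), HSPA9 (0.888, 0.796), BAG4 (0.798, 0.732), HSPA14 (0.785, 0.779), HSPA4L (0.761, 0.807), HSPA12A (0.755, 0.743), HSPD1 (0.728, 0.789) and HSPH1 (0.728, 0.764). Their adjusted permutation p-values for r lay between 0.00145 and 0.0179. The negative ones were HSPA6 (r = -0.789, rho = -0.821; adjusted permutation p = 0.0158 and 0.0107) and HSPB2-C11orf52 (r = -0.753, rho = -0.643; adjusted permutation p = 0.0314 and 0.0794). Values of HSPA6 lay near the filter value, and below it in several arrays. Without the 2 arrays farthest out on the score, LPS+RSV 2 and Control 5, r was 0.908 for HSPA4, 0.894 for FKBP5, 0.883 for BAG2 and -0.668 for HSPA6. HSPA1A (r = -0.328, rho = -0.300; adjusted permutation p = 0.447 and 0.421) and HSPB1 (r = 0.171, rho = 0.331; 0.736 and 0.457) were not called. Without LPS+RSV 1, r was -0.465 for HSPA1A, 0.46 for HSPB1, 0.94 for HSPA4L and -0.857 for HSPA6.

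**Figure D5:**
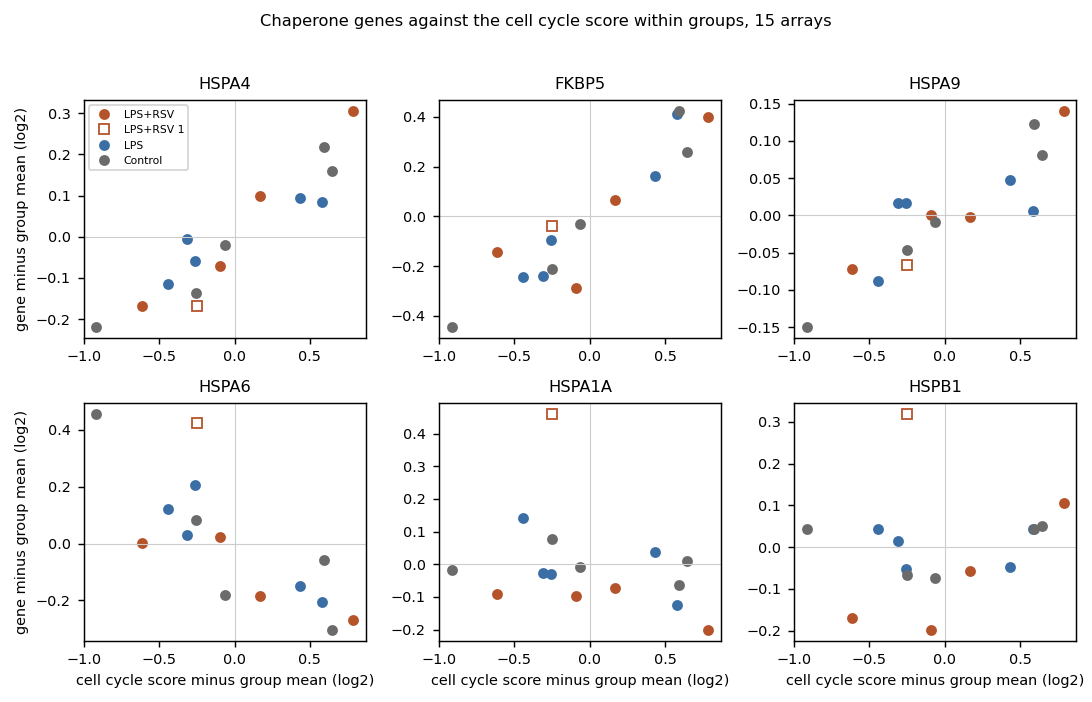
Deviation of 6 chaperone genes from the group mean (y axis, log2) against that of the cell cycle score (x axis, log2), 1 point per array, 15 arrays. HSPA4, FKBP5 and HSPA9 climb with the score (r of 0.932, 0.930 and 0.888), HSPA6 runs against it (r = -0.789), and HSPA1A and HSPB1 show r of -0.328 and 0.171. Without LPS+RSV 1 (open square) r is -0.465 for HSPA1A and 0.46 for HSPB1.

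With the score as a covariate, LPS+RSV minus LPS was -0.01 for HSPA4, 0.01 for FKBP5, -0.02 for BAG2, 0.01 for HSPA4L, -0.16 for HSPH1 and 0.10 for HSPB2-C11orf52. For HSPA14 it was 0.09, of opposite sign to -0.19. It was 0.24 for HSPA1A (adjusted p = 0.420), 0.20 for HSPA1B, 0.23 for HSPA1L and 0.24 for HSPB1 (adjusted p = 0.351). The HSPA1 genes and HSPB1 kept their sign, as did HSPH1, HSPA4 and BAG2. HSPA1A went from 0.32 to 0.24, HSPA1B from 0.27 to 0.20 and HSPA1L from 0.34 to 0.23, so these differences shrank too. Those of HSPA4, FKBP5, BAG2 and HSPA4L lay within 0.02 of 0. Under the covariate 2 of 26 had an unadjusted p under 0.05, against 11.9% of all genes. The score itself differs between the groups, so the covariate and the treatment cannot be told apart fully.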

How the data were processed

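Total RNA (300 ng per sample) was converted to labelled sense-strand cDNA for an Affymetrix whole-transcript array, per the labels' protocols. The deposited values are log2 expression values, which the authors made with RMA per the submitters' processing notes; for its version and the genome build, the sources used here give nothing. The table holds 53617 rows for 15 arrays; the platform annotation, which can be old, gives 16098 rows 1 symbol, 0 several, and 37519 none here.

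The brightest row stood for each symbol. The 3 group means were fitted to all 15 arrays over 11804 genes with limma 3.58.1 in R 4.3.3 (lmFit, eBayes), with Benjamini-Hochberg adjustment over all genes, and the code was tested on simulated data. Members and lists were chosen with earlier results of these data known, classes by symbol; pseudogenes and antisense RNAs were placed outside the cytosolic class. Genes named include the 8 of lowest p per comparison, preset chaperones where measured, and the 2 of lowest p of the cochaperone and ER lists. STIP1, PTGES3, UNC45A, CLPB and CLPX were named outside this rule, and cell cycle genes were described only as a set. Levels of different probes were not compared. All 30 symbols matched RefSeq by gene ID, and 23 had a promoter entry; BAG4 has no sequence shown. Same-numbered samples did not deviate together in all pairs, so the number was not used as a block. Alternatives covered the filter, probe sets, normalization, moderation, array weights, 2-group fits, the replicate number, the cell cycle score, and arrays left out. The number of arrays limits precision.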

Additional observations from a re-analysis of the deposited data

Results flagged for a closer look

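An array was picked out where its gap to the nearest array of its group of 5, divided by the range of the group, exceeded 0.71. Of 78 groups (26 genes in 3 groups) 10 held such an array, and 7 of the 10 were in LPS+RSV 1. The rule is set so that chance gives about 1 in 20 groups. HSPA1A and HSPA1B are not separate observations, and the share of all genes picked out by this rule is not given here. The count is therefore not a result about chaperones. In that array the HSP70 genes HSPA1A (11.39, against 10.73 to 10.86 in the other LPS+RSV arrays), HSPA1B (11.13, against 10.64 to 10.69), HSPA1L (7.56, against 6.92 to 7.05) and HSPA2 (6.59, against 5.73 to 5.85) were high. So were the HSP70 relative HSPA12B (7.22, against 6.35 to 6.58) and the stress-induced cochaperone BAG3 (7.85, against 7.20 to 7.38). HSPBAP1 was low there, at 8.01 against 8.37 to 8.49. The same array stood apart over all genes, and the part that array quality or the culture had in these values was not tested. The other 3 were the pseudogene HSPA7 in LPS+RSV 2 (5.04, against 5.36 to 5.47), BAG5 in LPS 2 (7.80, against 7.53 to 7.58) and the antisense RNA DNAJC9-AS1 in LPS 4 (4.83, against 5.19 to 5.30).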

How the results depend on the processing

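None of the chaperone genes tested was called in any comparison under any of the 26 alternatives, each array left out in turn included; 21 of the 26 were tested under the stricter filter, and all 30 symbols without a filter. The lowest adjusted p-values were 0.0672 for HSPA1A in LPS+RSV against LPS without LPS+RSV 2, 0.112 for HSPA6 in LPS against Control with the cell cycle score as a covariate, and 0.257 for HSPA4L in LPS+RSV against Control without LPS+RSV 2. With that covariate the median of the cytosolic genes was 0.0069 in LPS+RSV against LPS and -0.031 in LPS against Control. Leaving out 1 array moved the cytosolic median between -0.09 and -0.01 in LPS+RSV against LPS, -0.01 and 0.06 in LPS+RSV against Control, and 0.01 and 0.11 in LPS against Control. The ER gene median ran from -0.06 to -0.03, from 0.00 to 0.06 and from 0.02 to 0.06. Leaving out LPS 1 and LPS 2 together moved it to -0.0053 in LPS+RSV against LPS and to 0.0093 in LPS against Control. Signs changed under at least 1 alternative for 10, 9 and 12 of the 26 genes in these comparisons; of those with an unadjusted p under 0.05, only FKBP5 did, under the covariate. With the replicate number as a block (replicate block), 0 of the 26 were called. The unadjusted p was under 0.05 for 7, 1 and 0 of the 26, against 16.6%, 8.85% and 7.37% of all genes. Over all genes 3, 0 and 6 were called. Same-numbered LPS+RSV and Control arrays had correlations of -0.44, 0.71, 0.06, 0.10 and 0.43. For LPS+RSV and LPS arrays they were 0.10, -0.33, -0.25, -0.07 and -0.37. For LPS and Control arrays they were -0.19, -0.27, 0.12, -0.37 and -0.54. The numbers are therefore not known to pair samples. With 1 array left out, 5 to 11, 0 to 7 and 0 to 4 of the 26 had an unadjusted p under 0.05. The shares of all genes then ran from 14% to 24.9%, 5.33% to 16.9% and 5.78% to 10.3%. Without Control 5, 7 of the 26 had an unadjusted p under 0.05 in LPS+RSV against Control, against 13.7% of all genes. Without LPS+RSV 2, 5 of the 26 did, against 16.9% of all genes. Over all genes the calls in LPS+RSV against LPS (5) ran from 0 with only the 2 groups compared to 121 without LPS+RSV 2 (102 without LPS 3), with 22 under quantile normalization or the covariate and 25 under array weights. In LPS against Control (3) they ran from 0 with only the 2 groups to 67 with the covariate, with 15 under array weights, 10 without LPS 3 and 8 without LPS+RSV 1. The causes were not tested.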

Other observations

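Among chaperones outside the symbol rule, the mitochondrial HSP90 TRAP1 averaged 7.91 in LPS+RSV and 7.67 in LPS cells, a difference of 0.23 ± 0.14 (SE; adjusted p = 0.386). HSPA9 and HSPD1 of the same organelle were lower in the fit without the cell cycle score. The mitochondrial disaggregase CLPB and the protease chaperone CLPX differed by -0.08 ± 0.08 and -0.06 ± 0.07 (adjusted p = 0.639 and 0.684), so none of these helpers was called. The HSP90 cochaperones STIP1 (HOP) and PTGES3 (p23) differed by -0.15 ± 0.12 and -0.13 ± 0.10 in LPS+RSV against LPS, and by 0.16 ± 0.12 and 0.15 ± 0.10 in LPS against Control, without a call. ST13 and UNC45A of the same list went the other way, by 0.07 ± 0.08 and 0.08 ± 0.07 in LPS+RSV against LPS. In LPS against Control these 2 differed by -0.12 ± 0.08 and -0.09 ± 0.07. Of the 13 tested genes of the list, 5 were higher and 8 lower in LPS+RSV against LPS. In LPS against Control 6 were higher and 7 lower. Those 2 comparisons share the LPS arrays.

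HSPB1 held exactly the same value, 8.35, in 5 of the 15 arrays, and FKBPL the value 6.50 in 4. What made these values equal was not tested.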
